A study of Arabidopsis thaliana with 30 samples.

Results

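The cytosolic ribosomal protein genes described here are 54 nuclear loci, 20 for proteins of the small subunit and 34 for proteins of the large subunit. They were set as a list of locus names and not by a cut on their values, but with earlier results of these data known. They were 54 of the 33602 genes in the count table, all 54 were among the 21472 genes that passed the filter on low counts, and they cover 43 of the 79 cytosolic ribosomal protein families of Arabidopsis thaliana. The annotation names most of them by protein domain, so family names (rpL21, rpS6) follow the general eukaryotic nomenclature. RNA was sequenced from petiole regions of excised leaves of 21-day-old plants in 10 groups of 3 libraries. The mutant line was eur1-11, an EMS mutant with a nonsense change in EAR1 (EUR1), a regulator of abscisic acid signalling, and its parental line was WT (Col with the ORE1::LUC reporter, which both lines carry). Plants had grown in soil with a daily dark period and brighter light. Excised leaves were kept floating on a buffer in constant white light, and petiole regions were taken when the leaf was cut (0 h) and daily up to 96 h. No attached leaves were sampled at the later times. Excision, floating and the change in light therefore cannot be told apart in comparisons with 0 h. Each line is 1 isolate, nothing in the sources used here says whether the replicates came from separate plantings, and p-values therefore cover only the variation among these libraries, which may be technical.

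A cytosolic ribosome is built from 1 copy of nearly every ribosomal protein in each of its subunits, with the acidic stalk proteins as the known exception. In plants each protein is encoded by several gene copies, and the proteins are imported into the nucleus and assembled in the nucleolus on ribosomal RNA. Ribosomal protein genes are known to be highly expressed in growing and dividing tissue and to respond together to sugar, light and the TOR kinase. In excised leaves, cells near the cut in the petiole can divide and form adventitious roots, a process called de novo root regeneration.

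Promoters of plant ribosomal protein genes are known for short repeated motifs, of which the telo box and the site II element are the best described. Site II elements are bound by TCP transcription factors. A window of 250 bases before to 50 bases after the annotated start was read from the TAIR10.1 RefSeq assembly for all 54 genes and searched on both strands for the telo box (AAACCCTA), the site II element (TGGGCC or TGGGCT) and TATAAA, with overlapping matches counted as 1. The site II element was in 40 of 54 windows (74.1%), against 21.7% of 27443 nuclear protein-coding genes. The telo box was in 24 of 54 windows (44.4%), against 6.2% of all, and both motifs were in 17 (31.5%), against 2.2%. TATAAA was in 34 of 54 (63.0%), against 52.1%. The 172 other cytosolic ribosomal protein promoters held the site II element in 130 and the telo box in 86. Neither motif was in 7 of 54 windows (13.0%).

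The upstream 250 bases of 5 genes are shown on the gene's own strand, 5′ to 3′, because they span the range from several motifs to none. Telo box and site II matches on either strand are in capitals, and matches after the start were counted but are not shown. The first 2 belong to large subunit genes with several motifs, AT1G18540 (rpL6, chr1:6378581-6378830, minus strand) and AT3G09630 (rpL4, chr3:2953443-2953692, plus strand). The next 2 belong to both gene copies for rpS6, AT5G10360 (chr5:3260255-3260504, minus strand) and AT4G31700 (chr4:15347805-15348054, minus strand). The last belongs to AT1G09590 (rpL21, chr1:3106117-3106366, plus strand), which had neither motif and whose window overlaps the neighbouring gene AT1G09580.
AT1G18540: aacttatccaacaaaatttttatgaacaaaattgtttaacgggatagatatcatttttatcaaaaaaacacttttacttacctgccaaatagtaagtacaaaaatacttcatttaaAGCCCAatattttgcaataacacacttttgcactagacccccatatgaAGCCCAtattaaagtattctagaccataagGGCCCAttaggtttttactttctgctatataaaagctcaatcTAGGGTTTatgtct
AT3G09630: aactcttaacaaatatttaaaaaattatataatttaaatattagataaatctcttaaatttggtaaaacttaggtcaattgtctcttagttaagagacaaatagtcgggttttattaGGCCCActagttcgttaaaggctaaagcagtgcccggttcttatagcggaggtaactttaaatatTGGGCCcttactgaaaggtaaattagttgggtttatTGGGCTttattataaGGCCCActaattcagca
AT5G10360: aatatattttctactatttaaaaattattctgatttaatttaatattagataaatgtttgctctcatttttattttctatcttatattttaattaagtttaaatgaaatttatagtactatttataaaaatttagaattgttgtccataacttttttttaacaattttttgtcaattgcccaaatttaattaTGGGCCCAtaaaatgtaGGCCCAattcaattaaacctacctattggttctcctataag
AT4G31700: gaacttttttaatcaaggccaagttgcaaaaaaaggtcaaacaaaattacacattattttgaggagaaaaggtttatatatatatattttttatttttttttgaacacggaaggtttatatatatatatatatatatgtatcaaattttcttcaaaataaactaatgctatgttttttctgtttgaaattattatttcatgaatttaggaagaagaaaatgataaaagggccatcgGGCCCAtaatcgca
AT1G09590: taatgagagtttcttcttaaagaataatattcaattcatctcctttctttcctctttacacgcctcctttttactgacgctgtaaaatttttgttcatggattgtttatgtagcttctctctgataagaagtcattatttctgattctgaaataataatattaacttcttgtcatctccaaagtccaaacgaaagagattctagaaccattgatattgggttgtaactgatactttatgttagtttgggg

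Median changes were close between genes with and without the motifs. The 24 genes with a telo box had a median log2 fold change (24 h over 0 h) of 0.98 in eur1-11 and 1.59 in WT, and the 30 without it had 0.89 in eur1-11 and 1.47 in WT. The 7 genes with neither motif had medians of 0.98 in eur1-11 and 1.60 in WT, and they include AT1G09590, with the highest log2 fold change in WT. These are descriptions, and no test was made of motif against response.

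The level of the 54 genes was highest at 24 h in both lines and lower again at every later time. Levels are CPM, which divide counts by library size after scaling with TMM, a factor set on the bulk of the genes. Summed over the 54 genes, the level was 6169 ± 2863 CPM in eur1-11 at 0 h, 11665 ± 3204 CPM at 24 h, 8173 ± 129 CPM at 48 h, 6286 ± 317 CPM at 72 h and 6048 ± 102 CPM at 96 h (SD, n = 3 each). In WT it was 4349 ± 960 CPM at 0 h, 12550.5 ± 2597 CPM at 24 h, 8275 ± 732 CPM at 48 h, 6551 ± 174 CPM at 72 h and 6016 ± 285 CPM at 96 h (SD, n = 3 each). The highest group mean was at 24 h for 54 of 54 genes in both lines. The lowest was at 0 h for 54 of 54 genes in WT, whereas in eur1-11 it was at 0 h for 26, at 72 h for 1 and at 96 h for 27. From 24 to 96 h the mean fell at every step for 51 of 54 genes in eur1-11 and for 54 of 54 in WT.

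Over genes, replicates 1 and 2 were closer to each other than to replicate 3 in all 10 groups. In WT at 48 h the median absolute log2 difference was 0.105 between replicates 1 and 2, against 0.269 and 0.259 with replicate 3. In the 54 genes replicate 3 stood apart most at 0 and 24 h in both lines, and this touches every comparison with those times. In eur1-11 at 0 h the summed level was 4347, 4691 and 9469 CPM in replicates 1, 2 and 3, against 3890, 3706 and 5452 CPM in WT. At 24 h it was 13697, 13325 and 7971 CPM in eur1-11, against 14158, 13939 and 9555 CPM in WT. All 54 genes were higher in replicate 3 than in the mean of replicates 1 and 2 at 0 h, with a median log2 difference of 1.03 in eur1-11 and 0.50 in WT, and all 54 were lower at 24 h, by 0.75 in eur1-11 and 0.55 in WT on the log2 scale. Over all genes tested these medians were 0.03, 0.01, 0.00 and 0.01. Other lists moved with this: in replicate 3 of eur1-11 at 0 h the median log2 difference was 0.99 for 36 nuclear genes of plastid ribosomal proteins, 0.90 for 33 ribosome biogenesis genes, 0.18 for 5 mesophyll genes and 0.55 for 7 dividing cell genes. At 24 h replicate 3 held more mesophyll signal, with median log2 differences of 1.33 in eur1-11 and 1.34 in WT over 5 genes. What made these libraries differ was not tested, and changes of eur1-11 from 0 h are also given without that library where this moves them by more than 1.5 times, turns them or alters the call.

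**Figure D1:**
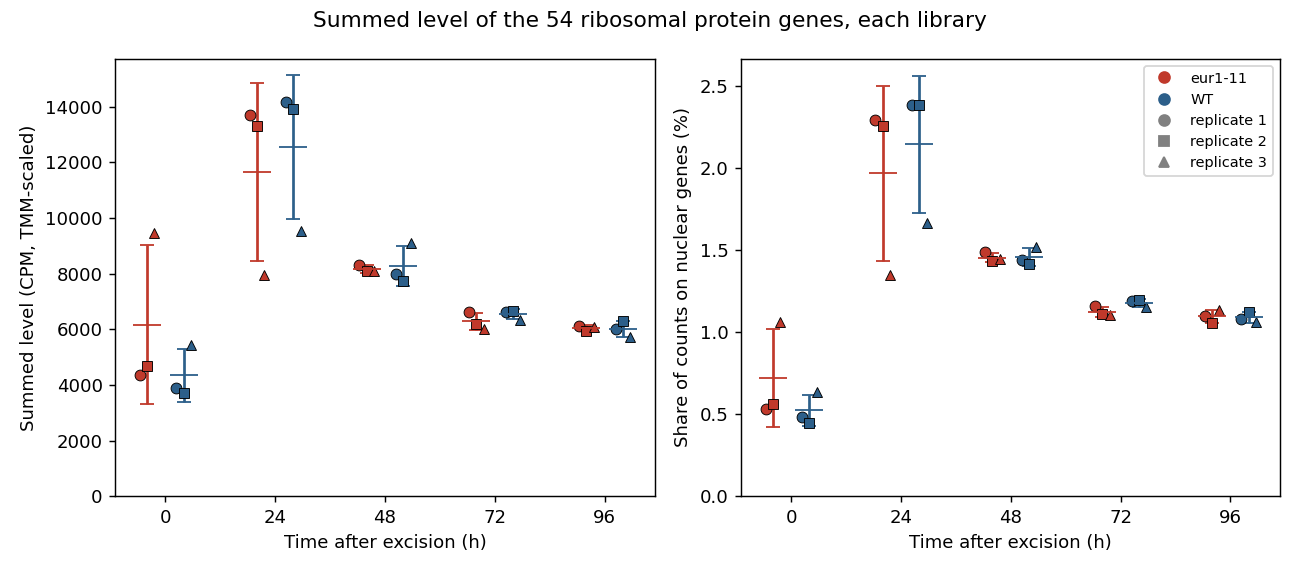
Summed level of the 54 genes in each library, as TMM-scaled CPM (left) and as a percent of counts on nuclear genes (right), by time after excision, with eur1-11 left of WT at each time. Horizontal marks are means and bars are SD (n = 3), and at 0 h replicate 3 of eur1-11, at 9469 CPM, lies above the other 5 libraries, and at 24 h replicate 3 of both lines lies under replicates 1 and 2.

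The share of nuclear counts does not use the scaling factor and was also highest at 24 h in both lines, but it placed 0 h of eur1-11 lowest, where the summed CPM at 0 h lay between those at 72 and 96 h. The 54 genes took 0.72% ± 0.30 of nuclear gene counts in eur1-11 and 0.52% ± 0.10 in WT at 0 h, 1.97% ± 0.53 in eur1-11 and 2.14% ± 0.42 in WT at 24 h, and 1.10% ± 0.04 in eur1-11 and 1.09% ± 0.03 in WT at 96 h (SD, n = 3 each). All 6 libraries of 24 h, from 1.35% to 2.39%, were above all 6 libraries of 0 h, from 0.45% to 1.06%. Chloroplast-genome genes took 55.8% to 62.9% of all gene counts at 0 h, 36.5% to 46.2% at 24 h and 18.7% to 26.5% at 96 h, and over all genes the share of the 54 genes at 0 h was 0.30% ± 0.14 in eur1-11 and 0.20% ± 0.04 in WT (SD, n = 3 each). In bulk RNA, more cells with active ribosome production and more ribosomal protein mRNA per cell cannot be told apart.

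Levels per kb of transcript differed widely between the 54 genes and AT4G10450 (rpL9) was the lowest in all 10 groups. Over all groups the highest in the large subunit were AT1G02780 (rpL19) at 310 CPM per kb, AT1G43170 (rpL3, a core protein near the catalytic centre) at 283 CPM per kb and AT1G14320 (rpL10, also known as SAC52) at 228 CPM per kb. In the small subunit AT1G72370 (rpSA, P40) at 215 CPM per kb and AT5G10360 (rpS6) at 192 CPM per kb were among the 3 highest. The lowest of each subunit were AT4G10450 at 16.8 CPM per kb and AT2G09990 (rpS16) at 39.3 CPM per kb. The ratio of the highest to the lowest gene was 13.4 in eur1-11 and 15.8 in WT at 24 h, and 20.4 in eur1-11 and 23.7 in WT at 0 h.

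**Figure D2:**
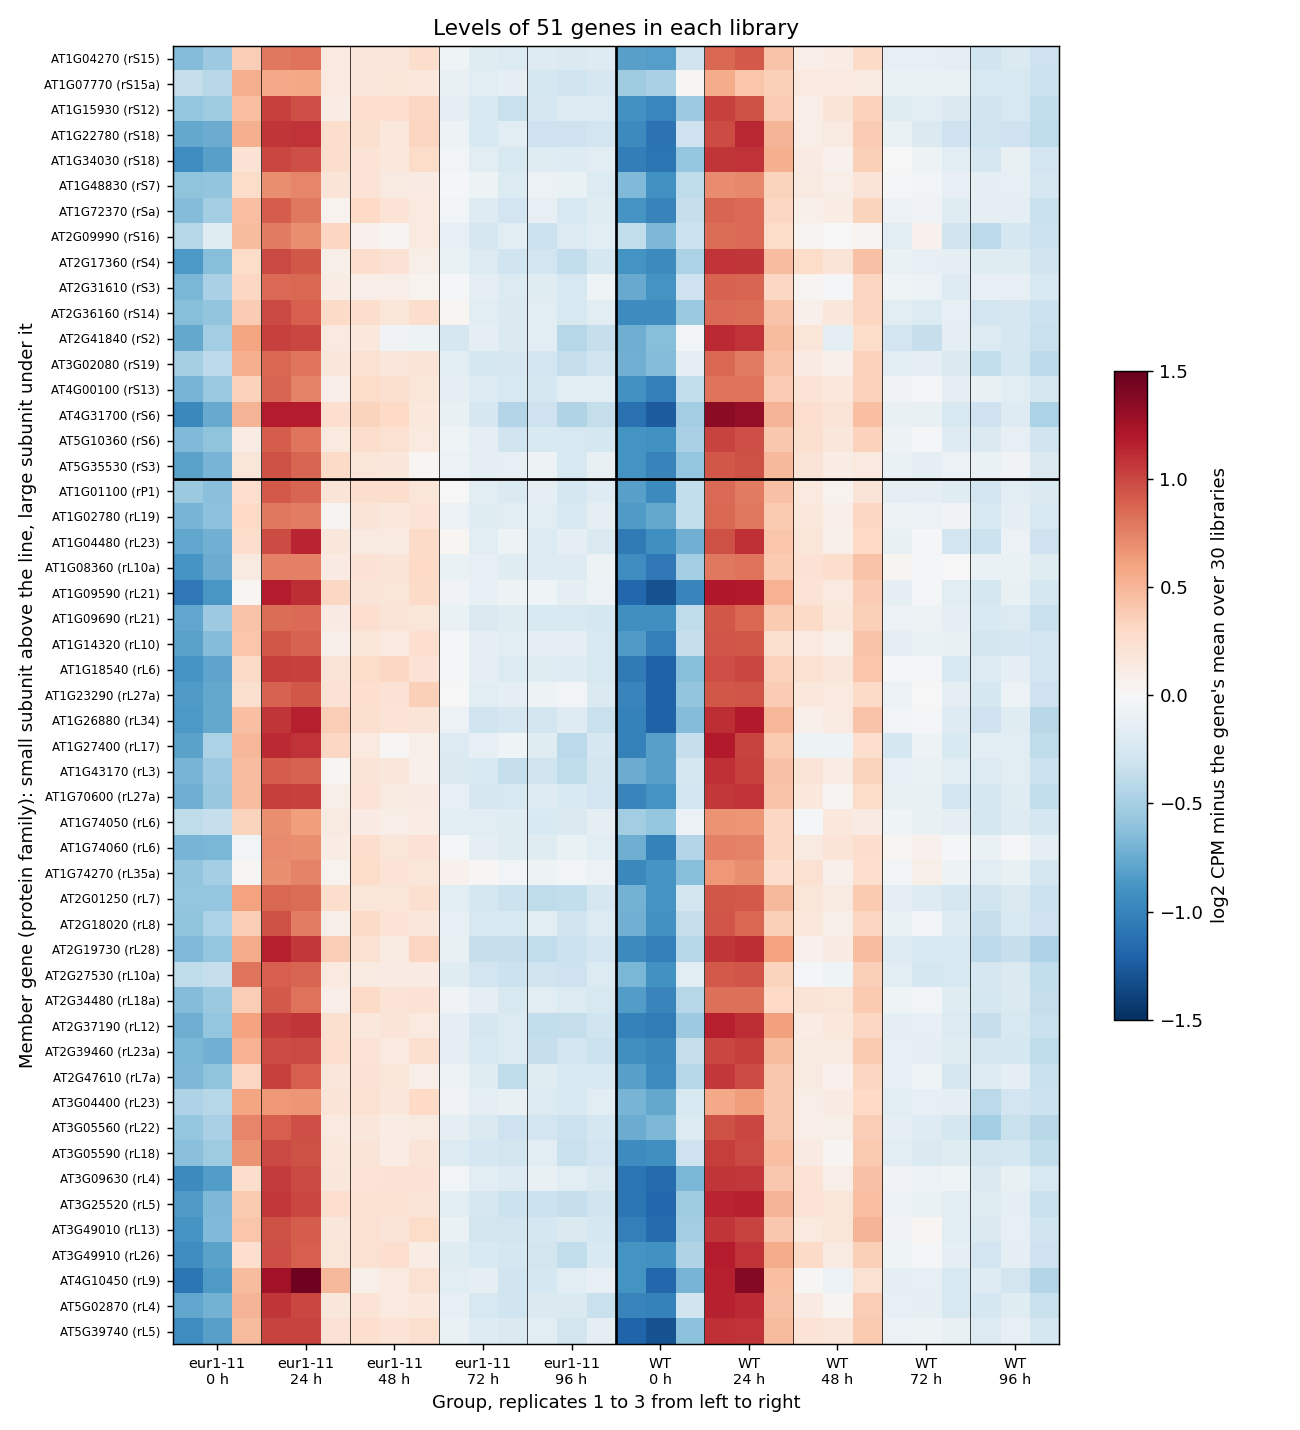
Level of 51 of the 54 genes (rows, small subunit above the line) in each of the 30 libraries (columns, eur1-11 left of WT, times from 0 to 96 h), as log2 CPM minus the gene's mean over all libraries. Replicates 1 and 2 at 24 h are above all other columns of their line for each gene drawn, and the third column of eur1-11 at 0 h is above the first and second for each of them.

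The first question was how the genes changed after excision within each line. At 24 h against 0 h, 53 of 54 genes rose in eur1-11 and 54 of 54 rose in WT (edgeR, adjusted p under 0.05), where 34.6% of all genes tested rose and 31.7% fell in eur1-11, and 35.9% rose and 32.1% fell in WT. The median log2 fold change of the 54 genes was 0.97 in eur1-11, with a range of 0.47 to 1.47, and 1.54 in WT, with a range of 0.77 to 2.16. The medians over all genes tested were 0.07 in both. The small subunit had medians of 0.91 in eur1-11 and 1.44 in WT, and the large subunit had 0.97 in eur1-11 and 1.57 in WT. All 3 libraries of 24 h were above all 3 of 0 h for 7 of 54 genes in eur1-11, where 33.5% of all genes showed this, and for 54 of 54 in WT, where 35.1% did. Without replicate 3 of eur1-11 at 0 h, 54 of 54 genes rose in eur1-11, with a median of 1.37. With replicate 1 or replicate 2 of every group left out, 8 and 7 genes were called in eur1-11, against 53 and 54 in WT. Leaving out a replicate number changes the fit of every gene. The share of all genes called is not given for such counts within a line, so they are not read as particular to the 54 genes. Scaling moved the values of all genes together: with nuclear gene totals the median over all genes was 0.51 higher in eur1-11 and 0.49 higher in WT, and 72.9% of all calls in eur1-11 and 71.8% in WT were rises, against 52.2% in eur1-11 and 52.8% in WT with TMM. The 54 genes stayed 0.92 above the median of all genes in eur1-11 and 1.48 above it in WT under that scaling.

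AT1G09590, 1 of the copies for rpL21, had the highest log2 fold change in both lines. Its level was 145, 138 and 79.4 CPM in eur1-11 at 24 h, against 30.7, 35.1 and 65.8 CPM at 0 h. In WT it was 148, 147 and 92.4 CPM at 24 h, against 28.5, 25.9 and 32.5 CPM at 0 h. The 24 h libraries were all above the 0 h libraries in both lines. The log2 fold change was 1.47 ± 0.23 (SE, adjusted p = 1.1e-05) in eur1-11 and 2.16 ± 0.24 (SE, adjusted p = 7.33e-08) in WT (edgeR).

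Both rpS6 copies rose. rpS6 is the small subunit protein that is phosphorylated by S6 kinase downstream of TOR. AT4G31700 had 434, 435 and 229 CPM in eur1-11 at 24 h, against 98.5, 114 and 273 CPM at 0 h. In WT it had 490.0, 482 and 275 CPM at 24 h, against 88.4, 80.8 and 134 CPM at 0 h. Replicate 3 of eur1-11 was higher at 0 h than at 24 h, and the WT groups did not overlap. Its log2 fold change was 1.18 ± 0.31 (SE, adjusted p = 0.00192) in eur1-11, or 1.81 without replicate 3 of eur1-11 at 0 h, and 2.04 ± 0.31 (SE, adjusted p = 6.28e-06) in WT (edgeR). AT5G10360 had 405, 377 and 238 CPM in eur1-11 at 24 h, against 137, 142 and 232 CPM at 0 h. In WT it had 434, 420.0 and 286 CPM at 24 h, against 116, 115 and 154 CPM at 0 h. All 24 h libraries were above all 0 h libraries in both lines, by the smallest margin in replicate 3 of eur1-11. Its log2 fold change was 0.99 ± 0.20 (SE, adjusted p = 0.000161) in eur1-11 and 1.56 ± 0.20 (SE, adjusted p = 5.78e-07) in WT (edgeR).

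AT4G10450 (rpL9), the gene with the lowest level, was among the 3 highest log2 fold changes in eur1-11. It had 53.9, 62.0 and 31.4 CPM in eur1-11 at 24 h, against 10.6, 12.5 and 31.2 CPM at 0 h. In WT it had 50.5, 58.2 and 30.7 CPM at 24 h, against 12.1, 9.94 and 13.8 CPM at 0 h. The groups did not overlap in either line, although replicate 3 of eur1-11 was nearly level between the times. The log2 fold change was 1.46 ± 0.30 (SE, adjusted p = 0.000212) in eur1-11 and 1.96 ± 0.31 (SE, adjusted p = 7.99e-06) in WT (edgeR).

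The lowest log2 fold changes among called genes belonged to the same 3 genes in both lines. AT1G07770 (RPS15A) had 146, 146 and 108 CPM in eur1-11 at 24 h, against 76.4, 73.6 and 142 CPM at 0 h. In WT it had 144, 131 and 126 CPM at 24 h, against 67.8, 69.7 and 99.3 CPM at 0 h. It overlapped between the times in eur1-11 and not in WT, with log2 fold changes of 0.47 ± 0.18 (SE, adjusted p = 0.022) in eur1-11 and 0.77 ± 0.18 (SE, adjusted p = 0.000558) in WT (edgeR). AT1G74050 (rpL6) had a log2 fold change of 0.61 ± 0.16 (SE, adjusted p = 0.00263) in eur1-11 and 0.94 ± 0.17 (SE, adjusted p = 3.37e-05) in WT (edgeR). AT3G04400 (rpL23, emb2171) had 0.56 ± 0.19 (SE, adjusted p = 0.0128) in eur1-11 and 1.09 ± 0.19 (SE, adjusted p = 2.85e-05) in WT (edgeR). Leaving out replicate 3 of eur1-11 at 0 h gave 0.82 for AT1G07770 and 0.94 for AT3G04400 in eur1-11.

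AT2G27530 (rpL10a, known as PIGGYBACK1 for its effect on leaf shape) was the gene not called in eur1-11 at 24 h. It had 233, 230.1 and 139 CPM in eur1-11 at 24 h, against 96.7, 98.2 and 219 CPM at 0 h. In WT it had 238, 241 and 159 CPM at 24 h, against 78.1, 67.0 and 112 CPM at 0 h. Only replicate 3 of eur1-11 was higher at 0 h. The log2 fold change was 0.57 ± 0.25 (SE, adjusted p = 0.0521) in eur1-11 and 1.33 ± 0.26 (SE, adjusted p = 9.14e-05) in WT (edgeR), and without replicate 3 of eur1-11 at 0 h it was 1.04 in eur1-11 (edgeR, adjusted p = 0.000285).

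**Figure D3:**
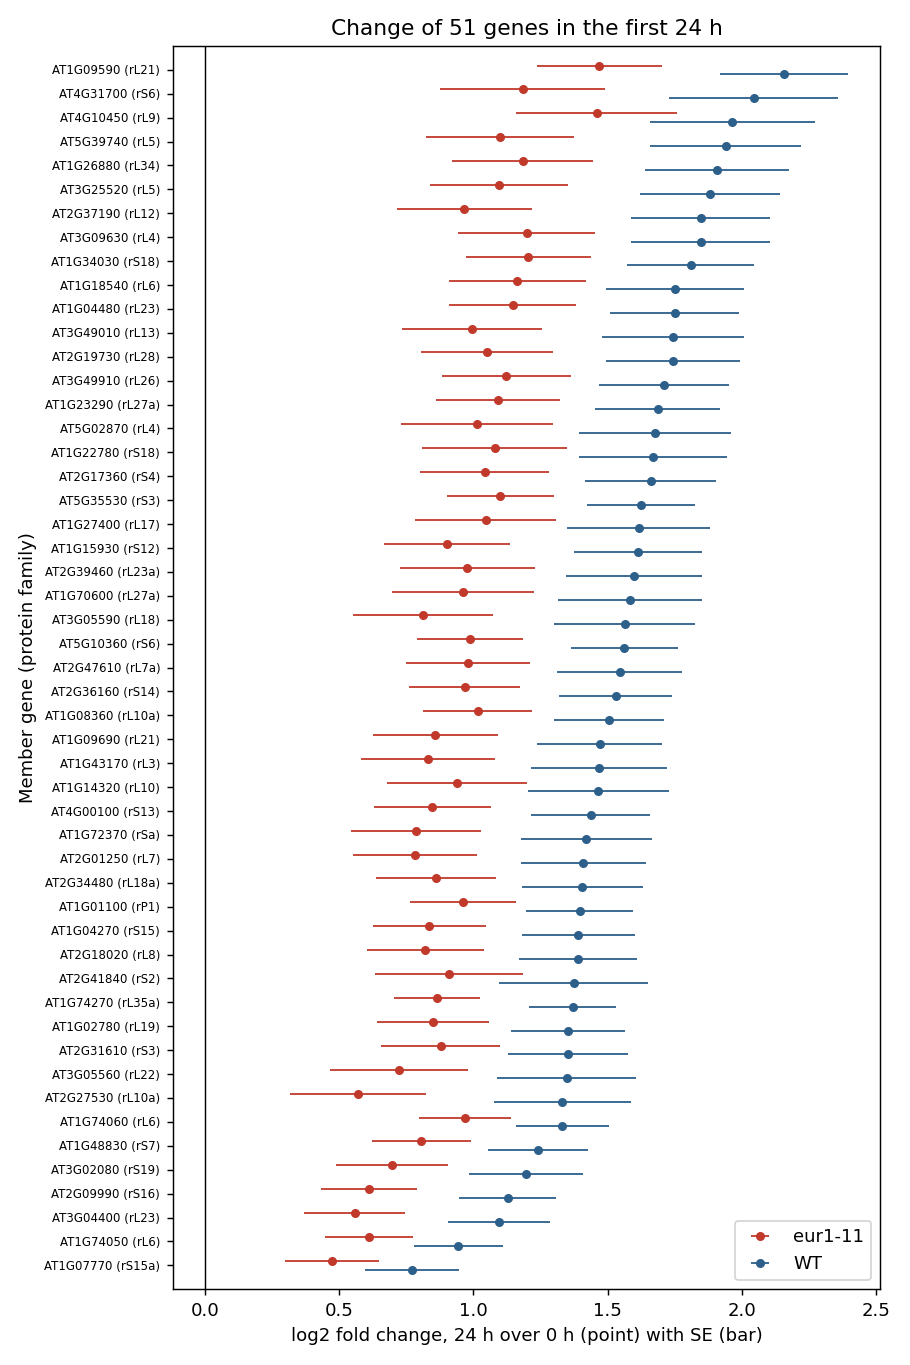
Log2 fold change at 24 h over 0 h (points) with its SE (bars) for 51 of the 54 genes, eur1-11 above WT in each row, ordered by the value in WT. All points lie above 0, from 0.47 to 1.47 in eur1-11 and from 0.77 to 2.16 in WT.

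At 48 h against 0 h, 12 of 54 genes rose in eur1-11, where 34.8% of all genes rose and 31.3% fell, and 53 of 54 rose in WT, where 37.6% rose and 31.3% fell. All 3 libraries of 48 h were above all 3 of 0 h for 5 of 54 genes in eur1-11, where 34.5% of all genes showed this, and for 53 of 54 in WT, where 38.0% did. The medians were 0.43 in eur1-11 and 0.96 in WT. The highest in eur1-11 were AT1G09590 (rpL21), at 0.78 ± 0.23 (SE, adjusted p = 0.00525), AT1G08360 (rpL10a), at 0.67 ± 0.20 (SE, adjusted p = 0.00585), and AT1G74060 (rpL6), at 0.66 ± 0.17 (SE, adjusted p = 0.00189) (log2 fold changes, edgeR). The lowest called there were AT5G35530 (rpS3) at 0.50, AT1G01100 (rpP1, a protein of the acidic stalk) at 0.50 and AT5G10360 (rpS6) at 0.55. AT5G39740 (RPL5B), at 0.53, was not called in eur1-11 and neither was the rpS6 copy AT4G31700, at 0.52. Leaving out replicate 3 of eur1-11 at 0 h gave 1.22 for AT1G09590, 1.05 for AT1G08360, 0.90 for AT5G35530, 0.84 for AT1G01100 and 0.88 for AT5G10360, and with it left out AT5G39740, at 1.11, and AT4G31700, at 1.16, were called (edgeR, adjusted p = 0.000167 and 0.000421).

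In WT at 48 h AT1G09590 at 1.40 and AT5G39740 at 1.27 were among the 3 highest. RPL5B is 1 of the copies for rpL5, which binds 5S ribosomal RNA, and is known as OLIGOCELLULA7 for its effect on leaf cell number. The lowest called were AT1G07770 (RPS15A) at 0.47, AT1G74050 (rpL6) at 0.47 and AT2G09990 (rpS16) at 0.48. AT2G41840 (rpS2) was the gene not called, with 139, 111 and 149 CPM in WT at 48 h, against 73.7, 79.1 and 119 CPM at 0 h, a log2 fold change of 0.56 ± 0.27 (SE, adjusted p = 0.0747) (edgeR). Its 48 h and 0 h libraries overlapped by 1 library of 0 h. At 48 h, 54 of 54 genes rose in eur1-11 without replicate 3 of 0 h, with a median of 0.86. With replicate 1 or replicate 2 of every group left out, 0 genes were called in eur1-11, against 38 and 31 in WT, and with replicate 3 left out 54 in each line.

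At 72 h and 96 h the lines gave different counts. At 72 h, 0 of 54 genes rose or fell in eur1-11, where 34.3% of all genes rose and 31.5% fell, and 38 of 54 rose in WT, where 37.0% rose and 30.9% fell. At 96 h, 0 of 54 changed in eur1-11, where 36.4% of all genes rose and 31.6% fell, and 21 of 54 rose in WT, where 38.1% rose and 30.8% fell, so that the count in WT was close to the share of all genes. Libraries of the later time were all above those of 0 h for 0 genes in eur1-11 at both times, where 36.0% of all genes at 72 h and 37.3% at 96 h showed this, and in WT for 46 genes at 72 h, where 39.4% did, and for 35 at 96 h, where 41.4% did. The medians were 0.05 in eur1-11 and 0.61 in WT at 72 h, and 0.00 in eur1-11 and 0.48 in WT at 96 h, beside medians over all genes of 0.09 and 0.11 in eur1-11 and 0.13 and 0.16 in WT. At an unadjusted p under 0.05, for which no share of all genes is given, 2 genes at 72 h and 0 genes at 96 h were higher in eur1-11 by edgeR. DESeq2 called 0 at both times. Without replicate 3 of eur1-11 at 0 h, 36 genes at 72 h and 28 genes at 96 h rose in eur1-11, where 34.6% and 36.6% of all genes rose, with medians of 0.51 and 0.44. With nuclear gene totals 49 genes at 72 h and 43 at 96 h were called higher in eur1-11, while the median of the 54 genes lay 0.01 and 0.08 under that of all genes. Leaving out replicate 1 or 2 of every group gave 0 calls in eur1-11 at both times, against 4 and 2 in WT at 72 h and 1 and 1 at 96 h, and leaving out replicate 3 gave 52 in eur1-11 and 54 in WT at 72 h and 49 in eur1-11 and 53 in WT at 96 h.

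Among the called genes of WT, AT1G09590 (rpL21) and AT5G39740 (RPL5B) were among the 3 highest at both times. AT5G39740 had 202, 214 and 194 CPM in WT at 96 h, against 101, 93.8 and 152 CPM at 0 h, and the groups did not overlap. Its log2 fold change was 0.93 ± 0.27 (SE, adjusted p = 0.00497) at 72 h and 0.82 ± 0.27 (SE, adjusted p = 0.011) at 96 h (edgeR). AT1G09590 had 1.05 ± 0.23 (SE, adjusted p = 0.000446) at 72 h and 0.94 ± 0.23 (SE, adjusted p = 0.00117) at 96 h (edgeR). Among the 3 lowest called were AT1G04270 (RPS15) at 0.50 and AT2G31610 (rpS3) at 0.52 at 72 h, and the lowest called at 96 h were AT1G48830 (rpS7) at 0.47, AT1G01100 (rpP1) at 0.47 and AT2G36160 (rpS14) at 0.52. Not called were AT5G02870 (rpL4) at 0.57 and AT1G22780 (rpS18, POINTED FIRST LEAF) at 0.55 at 72 h, and AT4G10450 (rpL9) at 0.61 and AT4G31700 (rpS6) at 0.61 at 96 h.

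In eur1-11 the genes with the highest and the lowest log2 fold change, neither of them called, were AT1G09590 and AT2G27530 at both times. AT1G09590 had 61.4, 58.0 and 60.7 CPM in eur1-11 at 96 h, against 30.7, 35.1 and 65.8 CPM at 0 h, with log2 fold changes of 0.48 ± 0.23 (SE, adjusted p = 0.0715) at 72 h and 0.46 ± 0.23 (SE, adjusted p = 0.0812) at 96 h (edgeR). AT2G27530 had 102, 101 and 109 CPM at 96 h, against 96.7, 98.2 and 219 CPM at 0 h, with log2 fold changes of -0.38 ± 0.25 (SE, adjusted p = 0.192) at 72 h and -0.39 ± 0.25 (SE, adjusted p = 0.171) at 96 h (edgeR). Leaving out replicate 3 of eur1-11 at 0 h, AT1G09590 was called at both times, with 0.92 at 72 h and 0.90 at 96 h (edgeR, adjusted p = 0.000408 and 0.000458), and AT2G27530 turned to 0.11 at 72 h and 0.10 at 96 h and was not called (edgeR, adjusted p = 0.669 and 0.692). In both genes replicate 3 of 0 h lay above all 96 h libraries and replicates 1 and 2 of 0 h lay under them. The rpS6 copy AT4G31700 had log2 fold changes of -0.01 at 72 h and -0.12 at 96 h in eur1-11, and 0.63 and 0.54 without replicate 3 of eur1-11 at 0 h (edgeR, adjusted p = 0.0294 and 0.06). The other copy, AT5G10360, had 0.17 at 72 h and 0.09 at 96 h, and 0.50 and 0.43 without that library (edgeR, adjusted p = 0.0175 and 0.0388).

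The next question was what followed the first day. At 96 h against 24 h, 54 of 54 genes fell in eur1-11 and 54 of 54 fell in WT, where 18.9% of all genes fell in each and 17.1% rose in eur1-11 and 17.6% in WT. The medians were -0.97 in eur1-11, with a range of -1.31 to -0.60, and -1.07 in WT, with a range of -1.43 to -0.71, and all 3 libraries of 96 h were under all 3 of 24 h for 54 of 54 genes in both lines, where 23.4% of all genes in eur1-11 and 22.5% in WT showed this. At 48 h against 24 h, 1 gene fell in eur1-11, where 4.73% of all genes fell and 4.23% rose, and 5 fell in WT, where 3.02% fell and 3.89% rose, although the medians were -0.53 in eur1-11 and -0.61 in WT and the fitted change was under 0 for 54 of 54 in both. All 48 h libraries were under all 24 h libraries for 16 genes in eur1-11, where 13.3% of all genes showed this, and for 45 in WT, where 10.1% did. The gene called in eur1-11 was AT4G10450 (rpL9), at -0.98, and those called in WT were AT4G10450 at -0.99, AT1G27400 (rpL17) at -0.87, AT1G09590 (rpL21) at -0.76, AT5G35530 (rpS3) at -0.65 and AT2G09990 (rpS16) at -0.65, all named after their values were seen. This 48 h count was 0 in each line with replicate 1 or replicate 2 of every group left out, 54 in each line with replicate 3 left out, and 29 in eur1-11 and 42 in WT without replicate 3 of eur1-11 at 0 h. The calls of the 96 h fall depended on the replicates more than its size did. Without replicate 1 it was called for 0 genes in eur1-11 and 5 in WT, with medians of -0.84 in eur1-11 and -0.95 in WT, and without replicate 2 for 0 in eur1-11 and 7 in WT, with medians of -0.84 in eur1-11 and -1.03 in WT. Without replicate 3 it was called for 54 genes in each line, with medians of -1.16 in eur1-11 and -1.19 in WT.

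In the main fit, with 1 replicate block shared by all times, the comparison between the lines showed no called difference at any time. The fit with the block within each time, given in the next paragraph, differed at 0 h. In eur1-11 against WT, 0 of 54 genes were called at any of the 5 times (0 h and each day to 96 h), where, in order of time, 1.47%, 0.289%, 0.284%, 0.419% and 0.391% of all genes were called higher and 0.61%, 0.0419%, 0.0559%, 0.0605% and 0.126% lower. DESeq2 also called 0. At an unadjusted p under 0.05 in edgeR, 32 genes were higher in eur1-11 at 0 h and 0 genes differed at the later times. The share of all genes at this unadjusted threshold is not given, so these counts are not read as particular to the 54 genes. At 0 h the fitted log2 fold change was above 0 for 54 of 54 genes, with a median of 0.52 and a range of 0.27 to 0.73, beside a median of 0.02 over all genes. This median was 0.03 without replicate 3 of eur1-11 at 0 h. That removal is not balanced between the lines, since it keeps replicate 3 of WT at 0 h. In WT that library was also raised, by a median log2 difference of 0.50. The median SE of these single-gene differences at 0 h was 0.23.

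The 0 h difference depended on how replicate numbers entered the fit. Equal-numbered libraries of the lines deviated together at each time, so a fit with the replicate block within each time was also made, and in it 48 of 54 genes were higher in eur1-11 at 0 h, with a median of 0.44, where 6.92% of all genes were called higher. Without replicate 3 of every group, 32 of 54 were higher in eur1-11 at 0 h, with a median of 0.26, where 6.95% of all genes were called higher. Within replicates 1, 2 and 3 the summed level at 0 h was 4347, 4691 and 9469 CPM in eur1-11, against 3890, 3706 and 5452 CPM in WT, higher in eur1-11 in each. At 24 h the median was -0.08 with a range of -0.24 to 0.08, at 48 h -0.01, at 72 h -0.05 and at 96 h 0.02, each with a median SE of 0.23.

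The change after excision was also compared between the lines directly, as an interaction. The rise from 0 h was smaller in eur1-11 than in WT in the fitted values of 54 of 54 genes at every later time, with medians of -0.59 at 24 h, -0.51 at 48 h, -0.55 at 72 h and -0.48 at 96 h, and 0 of 54 genes were called, where 0.0% of all genes were called lower at 24 and 48 h, 0.00931% at 72 h and 0.0512% at 96 h. DESeq2 called 0, and at an unadjusted p under 0.05 edgeR gave 8, 1, 8 and 1 genes, with no share of all genes given at that threshold. All 4 interactions share the 0 h libraries. The share of all genes with a fitted interaction under 0 is not given. The 54 genes are read from the same libraries, so their common direction is not 54 separate results. They come from the fit with 1 replicate block shared by all times, and are not given here with the block within each time. With replicate 3 of every group left out, 10 genes at 24 h, 17 at 72 h and 13 at 96 h were called lower, where 2.52%, 3.71% and 5.06% of all genes were. Without replicate 3 of eur1-11 at 0 h the medians were -0.13, -0.06, -0.09 and -0.03. This removal keeps replicate 3 of WT at 0 h, so it is not balanced between the lines.

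The mean over the 5 times also gave 0 of 54 genes called between the lines, where 3.38% of all genes were called higher and 2.33% lower in eur1-11, with a median of 0.08. EAR1 itself (AT5G22090) was at 105 to 226 CPM in eur1-11 and 195 to 262 CPM in WT at 0 h, and at 243 to 324 CPM in eur1-11 and 368 to 378 CPM in WT at 24 h. A nonsense change need not remove the transcript, so this level is only a partial check of the line.

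Ratios between gene copies of 1 protein differed between times in several families. Of 12 pairs of copies in 10 families, the log2 ratio of counts within a library, which does not depend on scaling, was compared with 0 h at 24 h and at 96 h, giving 24 tests. The exact two-sided permutation test permuted times within line over 12 libraries, and 19 of 24 tests had an adjusted p under 0.05, where the smallest p the 400 arrangements can give is 0.005. This treats the libraries of both lines as independent, although those of equal number deviated together. With equal-numbered libraries moved together, an alternative chosen after seeing the data, there are 20 arrangements, the smallest p they can give is 0.1, so that no test can reach 0.05, and 17 of 24 tests had that p. The p-values of ratios given next are from the 400 arrangements.

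The largest change was in rpL6. The log2 ratio of AT1G18540 to AT1G74050 was 0.87 to 1.24 at 24 h, against 0.21 to 0.79 at 0 h, a mean change of 0.70 (exact permutation test, p = 0.005, adjusted p = 0.00857, n = 6 each). Its lowest library at 24 h was above its highest at 0 h. In rpL21, AT1G09590 to AT1G09690 had -0.66 to -0.46 at 24 h, against -1.40 to -1.05 at 0 h, a change of 0.63 with the same p. In rpL23, AT1G04480 to AT3G04400 had -2.05 to -1.55 at 24 h, against -2.52 to -2.19 at 0 h, a change of 0.60 with the same p. In both families the copy with the lower counts was higher relative to its partner at 24 h, and the groups did not overlap.

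In rpL10a, AT1G08360 to AT2G27530 had 0.17 to 0.25 at 96 h, against -0.60 to -0.10 at 0 h, a change of 0.52 (exact permutation test, p = 0.005, adjusted p = 0.00857, n = 6 each). This ratio was 0.30 higher at 24 h than at 0 h, or 0.20 without replicate 3, and the mean ratio was under 0 at 0 h and above 0 at 96 h in both lines. In rpS6 the ratio of AT4G31700 to AT5G10360 was 0.37 higher at 24 h than at 0 h (exact permutation test, p = 0.025, adjusted p = 0.0316, n = 6 each) and differed from 0 h by -0.01 at 96 h (p = 0.98, exact permutation test). With 1 replicate left out in turn, the rpS6 change was 0.25 to 0.59 at 24 h and -0.11 to 0.15 at 96 h, both highest without replicate 3. The rpL5 copies AT3G25520 and AT5G39740 differed by -0.04 at 24 h (p = 0.31, exact permutation test), or by -0.08 without replicate 3. Of AT1G18540, 35.9% of 100-base windows of the transcript are shared with another annotated gene that overlaps it on the other strand, and 5 of the 54 genes had more than 10% shared.

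**Figure D4:**
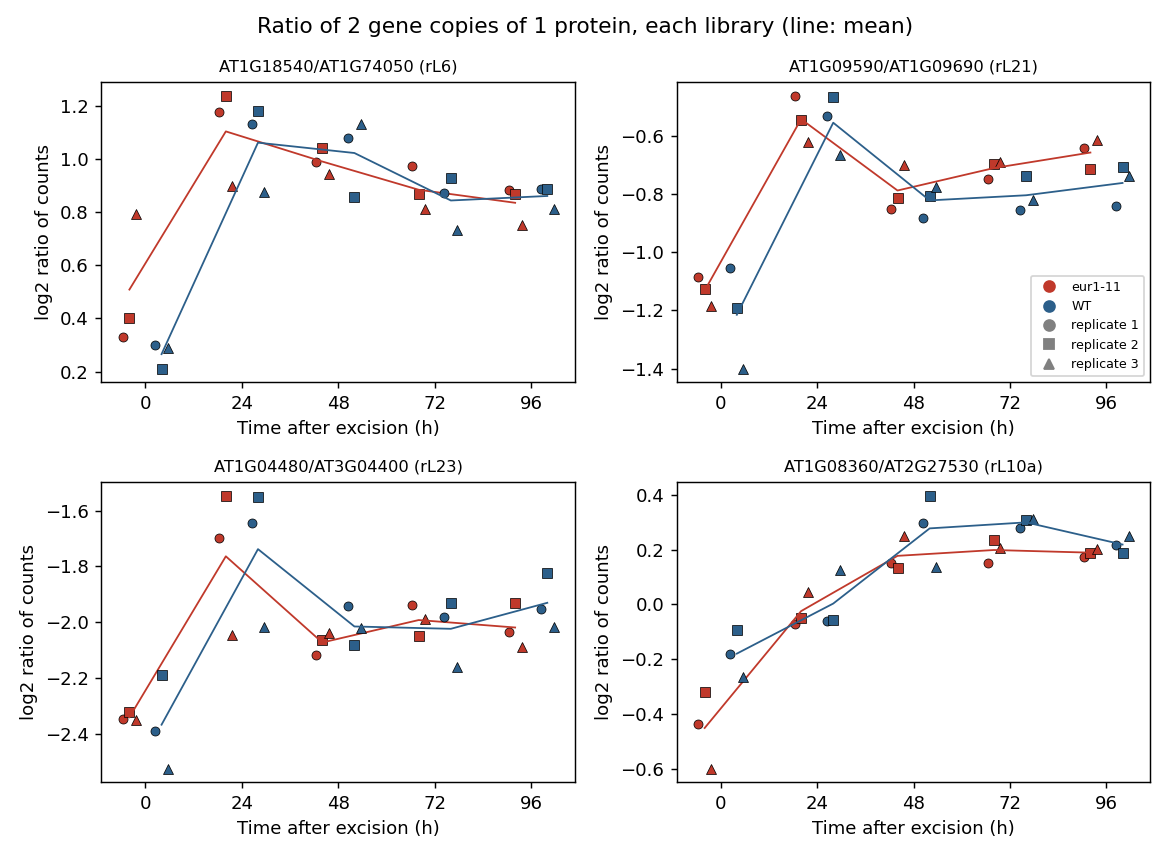
Log2 ratio of counts of 2 gene copies of 1 protein in each library by time after excision, with eur1-11 left of WT, for the 4 pairs with the largest change, with lines through the means of 3 libraries. The ratios for rpL6, rpL21 and rpL23 are highest at 24 h, and that for rpL10a rises to 48 h or later.

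The rest of the ribosome pathway was read from gene lists that were also chosen with earlier results of these data known. Of 173 other cytosolic ribosomal protein genes, 156 passed the filter, and 152 rose in eur1-11 and 155 in WT at 24 h, with medians of 0.98 in eur1-11 and 1.55 in WT. The gene not called in WT was AT5G24510, at 0.04. The largest fitted changes in WT belonged to AT5G40040 and AT3G28500, both of the rpP2 stalk family and both with few reads. AT5G40040 had 70, 70 and 20 reads in eur1-11 and 62, 72 and 14 reads in WT at 24 h, against 0 reads in all 6 libraries of 0 h. AT3G28500 had 22, 38 and 9 reads in eur1-11 and 18, 21 and 5 reads in WT at 24 h, against 2, 0 and 2 reads in eur1-11 and 0 reads in WT at 0 h. No fold is given for these 2 genes, since it would depend on the prior count. At 96 h against 24 h, 150 of 156 fell in eur1-11 and 152 of 156 in WT.

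Genes that make the ribosome rose with its proteins. Of 33 ribosome biogenesis genes, 33 rose in eur1-11 and 33 in WT at 24 h, with medians of 1.54 in eur1-11 and 1.91 in WT. The highest in WT were FIB2, a fibrillarin that acts in methylation of ribosomal RNA, at 3.79 and NUC2, a nucleolin, at 3.41. Of 4 RNA polymerase I genes, 4 rose in each line, with NRPA12 at 2.07 and NRPA1 at 1.80 in WT. At 96 h, 21 of 33 biogenesis genes in eur1-11 and 33 of 33 in WT were still higher than at 0 h, where 36.4% of all genes in eur1-11 and 38.1% in WT were. Without replicate 3 of eur1-11 at 0 h it was 33 of 33 in eur1-11. In the interaction at 96 h 0 of 33 were called (edgeR), with 4 at an unadjusted p under 0.05, for which no share of all genes is given.

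Most translation factor genes rose, and few TOR pathway genes were called. Of 27 translation factor genes, 21 rose and 1 fell in eur1-11, and 24 rose in WT at 24 h, with medians of 0.74 in eur1-11 and 0.97 in WT. The highest in WT were ELF5A-1, an initiation factor 5A gene, at 1.73 and EF1B-gamma1, of the elongation factor 1B complex, at 1.41, and the gene that fell in eur1-11 was EF1B-alpha1, at -0.65, a call lost without replicate 3 of eur1-11 at 0 h. Of 8 TOR pathway genes, 1 rose and 2 fell in each line. S6K2, which encodes an S6 kinase, fell by 1.95 in WT (log2, edgeR, adjusted p = 3.61e-09), RAPTOR1B fell by 0.19 and TAP46 rose by 0.24, whereas TOR itself had a log2 fold change of -0.16 that was not called (edgeR, adjusted p = 0.109). In eur1-11 the genes called were S6K2 at -2.03, S6K1 at -0.79 and TAP46 at 0.26, and RAPTOR1B was not called. S6K1, at -0.15, was not called in WT (edgeR, adjusted p = 0.495).

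Nuclear genes of plastid ribosomal proteins went the other way. All 36 fell in eur1-11 and all 36 in WT at 24 h, with medians of -2.81 in eur1-11 and -2.55 in WT, and 36 of 36 in each line were still lower at 96 h than at 0 h. RPL34 at -2.91 and RPL15 at -2.81 were the lowest in WT. Their summed level was 692 to 944 CPM in eur1-11 and 684 to 1047 CPM in WT at 24 h, against 3987 to 8139 CPM in eur1-11 and 3834 to 6099 CPM in WT at 0 h.

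**Figure D5:**
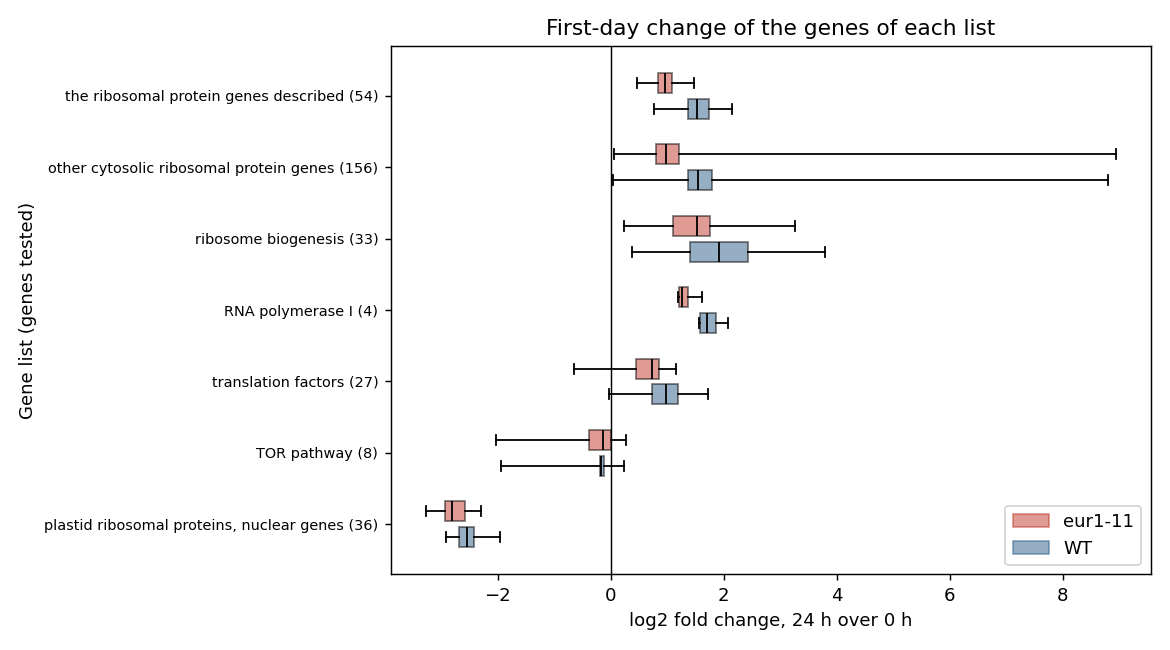
Log2 fold change at 24 h over 0 h of the genes of each list, eur1-11 above WT, with the box at the quartiles, the line at the median and the whiskers at the extremes, and numbers in brackets are genes tested. The cytosolic ribosomal protein, biogenesis and RNA polymerase I lists have medians above 0.9, and the plastid ribosomal protein list has medians under -2.5 in both lines.

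Marker genes of cell types moved over the same times. Of 7 genes of dividing cells, 4 rose in eur1-11 and 5 in WT at 24 h, and their summed level was 84.3 to 97.0 CPM in eur1-11 and 86.8 to 99.6 CPM in WT at 24 h, against 49.7 to 73.4 CPM in eur1-11 and 44.9 to 50.8 CPM in WT at 0 h. MCM5, of the replicative helicase, and PCNA1, the sliding clamp, both had 1.60 in WT, and none of the 7 was at 0 in any group. The genes not called in WT were CYCD3;1 at -0.63 and KNOLLE at 0.61. Those not called in eur1-11 were CYCD3;1 at -0.23, KNOLLE at 0.30 and CDKB2;1 at 0.35. All 5 mesophyll genes fell in both lines, and their summed level was 1467 to 4573 CPM in eur1-11 and 1395 to 4413 CPM in WT at 24 h, against 20757 to 25695 CPM in eur1-11 and 20614 to 24114 CPM in WT at 0 h, with CA1 at -6.84 and RBCS1A at -3.87 in WT. All 3 epidermis genes fell in both lines. Cambium genes rose for 2 of 3 in each line (WOX4 at 1.43 and HB8 at 0.90 in WT), no xylem gene of 3 was called, and phloem genes gave 0 rises and 2 falls in eur1-11 (1 fall without replicate 3 of eur1-11 at 0 h) and 1 rise (APL at 0.28) and 1 fall (SUC2 at -0.99) in WT. The root tip genes WOX5, PLT1, PLT2 and CASP1 did not pass the filter, and MYB36 had 0 to 1 count per group at 0 and 24 h. The part that a change in the mix of cells had in the result for the 54 genes was not tested.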

How the data were processed

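Counts of reads per gene were deposited for 30 libraries. The authors made them with STAR on the TAIR10 genome and HTSeq, after FastQC. Versions and strand setting are not given in the sources used here, so a gene and its antisense partner cannot be told apart. Gene counts ranged from 22482318 to 43243161 per library, and 3.58% to 6.76% of reads in no gene and 2.43% to 3.45% in several were left out. Counts were fitted with edgeR 4.0.16 in R 4.3.3 (TMM scaling, filterByExpr, quasi-likelihood F test, group plus replicate number as a block, Benjamini-Hochberg adjustment over 21472 genes, called under 0.05). Libraries of equal number deviated together between the lines in 15 of 15 pairs (mean r = 0.512 across 16203 genes). Between times of 1 line the mean r of equal-numbered libraries was 0.121 over 60 pairs, so a block shared by all times takes up little of this. DESeq2 1.42.0, other scalings, no filter, no block and leaving out replicates were alternatives. Ratios of copies used a pseudocount of 0.5. The scripts were tested on simulated data. The members and gene lists were chosen with earlier results of these data known. Named genes were the 3 highest and 3 lowest log2 fold changes among called genes and the 2 largest uncalled ones in each comparison with 0 h, the 3 highest and the lowest levels of each subunit, both rpS6 copies, the 4 pairs of copies with the largest change in ratio, and the 2 largest called changes of each other list in each direction at 24 h in WT. Some genes that this rule names are not reported here.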

Additional observations from a re-analysis of the deposited data

How the results depend on the processing

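Directions held more widely than calls. RLE size factors kept all 17 counts of called genes within 1.5 times of the values above. With upper-quartile scaling, 39 genes rose in WT at 96 h against 0 h, and 40, 4 and 4 rose in eur1-11 at 48, 72 and 96 h. With total counts, which shift the median of all genes by 1.02 or more (log2) in the comparisons with 0 h, 54 rose in WT at 96 h and 54 in eur1-11 at each of 48, 72 and 96 h. There, 0 fell at 48 h against 24 h in either line, 13 fell in eur1-11 and 32 in WT at 96 h against 24 h, and 2 were higher in eur1-11 than in WT at 0 h. With nuclear gene totals, 54 rose in WT at 96 h, and 54, 49 and 43 in eur1-11 at 48, 72 and 96 h. With no filter on low counts, 1 rose in eur1-11 at 72 h and 1 fell in WT at 48 h against 24 h. DESeq2 called 8 in eur1-11 and 21 in WT as lower at 48 h against 24 h. The share of all genes called under each of these settings is not given here. These counts are therefore not read as particular to the 54 genes.

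Leaving out replicate 3 of eur1-11 at 0 h was an alternative chosen after seeing the data, and it is not balanced between the lines. Without that library, 54, 36 and 28 genes rose in eur1-11 at 48, 72 and 96 h, and 36 rose in WT at 96 h. At 48 h against 24 h, 29 fell in eur1-11 and 42 in WT. Leaving out each replicate number in turn gave 7 to 54 rises in eur1-11 at 24 h, 0 to 54 at 48 h, 0 to 52 at 72 h and 0 to 49 at 96 h, and in WT 31 to 54 at 48 h, 2 to 54 at 72 h and 1 to 53 at 96 h. It gave 0 to 54 falls at 48 h against 24 h in each line, and 0 to 54 in eur1-11 and 5 to 54 in WT at 96 h against 24 h. Between the lines it gave 0 to 32 genes higher in eur1-11 at 0 h, 0 to 7 in the mean of 5 times, and 0 to 10, 0 to 17 and 0 to 13 lower in the interactions at 24, 72 and 96 h. The share of all genes called is not given beside these counts and ranges, so they are not read as particular to the 54 genes. The cause was not tested.

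With no replicate block, 1 gene rose in eur1-11 at 72 h, and the other 16 counts stayed within 1.5 times. With the replicate block within each time, 48 genes were higher in eur1-11 at 0 h and 3 in the mean of 5 times.

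Some calls of named genes were lost. With RLE size factors and with DESeq2, AT1G04270 and AT2G31610 in WT at 72 h and AT1G01100 in WT at 96 h were not called. Of the changes of named genes, 28 were weaker without replicate 1 of every group and 29 without replicate 2. Of the named genes, 3 changed sign in eur1-11. AT2G27530 had log2 fold changes at 72 h of 1.0 with total counts, 0.24 with nuclear totals and -0.62 to 0.12 with 1 replicate number left out of every group. At 96 h these were 1.08, 0.24 and -0.58 to 0.0499. AT4G31700 had 1.37, 0.61 and -0.35 to 0.67 at 72 h and 1.36, 0.53 and -0.41 to 0.47 at 96 h under these settings. It had 0.17 at 72 h and 0.056 at 96 h with upper-quartile scaling, and 0.026 at 72 h with no filter. AT5G10360 had -0.017 to 0.52 at 72 h and -0.052 to 0.43 at 96 h with 1 replicate left out. The low ends came without replicate 1 and the high ends without replicate 3. Values were also positive without replicate 3 of eur1-11 at 0 h alone (0.11 at 72 h and 0.10 at 96 h for AT2G27530, 0.63 and 0.54 for AT4G31700, 0.50 and 0.43 for AT5G10360).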
